A study of Homo sapiens with 4 samples.

Results

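The genes described here were 8 collagen genes chosen by symbol, COL1A1, COL1A2, COL3A1, COL5A1, COL5A2, COL6A1, COL6A2 and COL6A3, out of 33538 genes listed in each library. Each symbol matched 1 gene, and all 8 genes had at least 20 CPM (counts per 1e6 UMIs, a UMI being a counted RNA molecule) in every library. They were measured by droplet single-cell RNA sequencing (scRNA-seq) in HCEC 1CT cells, an immortalised line (TERT and CDK4) from normal human colon that was used as a model of early APC loss. Cells were transduced with a virus that carried an shRNA to knock down APC (shAPC) or, as control, a scrambled sequence (shScr), were grown with puromycin, EGF, hydrocortisone, insulin, transferrin, selenite and low serum, and were harvested at day 3 or day 7 after transduction. Each of the 4 groups held 1 library, so no difference between groups has a replicate check and all intervals below are 95% intervals that cover counting error only.

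The kept cells numbered 788 to 2600 per library and held 28451455 to 39797418 UMIs. The shScr day 7 library stood apart in depth, with a median of 1330 UMIs per kept cell against 21029.5 to 49685.5 in the others, and 1402 of its 2600 kept cells had under 2000 UMIs. Between 1 and 19 barcodes of kept cells were shared by any pair of libraries. The target of the shRNA was lower in both shAPC libraries, with APC at 16.1 CPM in shScr day 3, 5.52 in shAPC day 3, 19.1 in shScr day 7 and 6.61 in shAPC day 7. The labels call the cells colonic epithelial progenitors, but some defining markers of colonic epithelium were at or near 0. EPCAM, CDH1, VIL1 and CDX2 had 0 to 2 UMIs in every library, and CLDN4 had 1 to 8. KRT8 (9.57 to 19.4 CPM), CLDN7 (6.26 to 16.9), KRT18 (3.02 to 7.13) and KRT19 (2.34 to 5.72) were detected at low levels. In no library did any of the 9 epithelial markers reach 20 CPM, and the list summed to 25.1 to 49.5 CPM. In contrast 7 to 10 of the 10 fibroblast and mesenchymal markers reached 20 CPM, and that list, led by VIM at 4010 to 5303 CPM and FN1 at 2758 to 3676 CPM, summed to 7456 to 9637 CPM. Of the 4 smooth muscle and pericyte markers only ACTA2 reached 20 CPM. It was at 40.7 CPM in shScr day 3, 71.8 in shAPC day 3, 37.1 in shScr day 7 and 46.4 in shAPC day 7. The 4 endothelial markers summed to 0.096 to 0.28 CPM, with PECAM1 and CDH5 at 0 or 1 UMI. Of the 4 blood cell markers PTPRC and CD3E had 0 or 1 UMI and HBB 3 to 21 UMIs, while CD68, a lysosomal protein, was at 17.4 to 29.6 CPM and above 20 CPM in both shAPC libraries. The collagens described below were thus measured in cells with high mesenchymal and low epithelial transcripts, and the part of this in the results was not tested.

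Collagens are secreted proteins made of chains that wind around each other into a rigid helix of Gly-X-Y repeats, in which the small residue glycine recurs at the core of the helix. Types I, III and V form the banded fibrils of connective tissue. Type I, the main fibril collagen, joins COL1A1 chains with COL1A2 chains, type III is made of COL3A1 chains alone, and type V, which joins COL5A1 with COL5A2, lies within type I fibrils and helps to start them. Type VI is assembled from COL6A1, COL6A2 and COL6A3 into beaded microfilaments close to the cell surface. In the colon these genes are known mainly as products of the fibroblasts of the wall and of tumour stroma.

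The repeat can be read in the genes themselves. In the GENCODE 44 gene models on hg38, many coding exons of the fibrillar genes were 54 bases long, namely 21 of 51 in COL1A1, 24 of 52 in COL1A2, 24 of 51 in COL3A1, 29 of 66 in COL5A1 and 24 of 54 in COL5A2. In the type VI genes this length was found in 2 or 3 coding exons and a length of 63 bases in 7 of 35 (COL6A1), 8 of 27 (COL6A2) and 7 of 43 (COL6A3). The first such exon of each gene that starts at a glycine codon and keeps glycine at every Gly position is shown to make the shared repeat visible, with the glycine codons of the repeat position in capitals (6 in a 54-base exon and 7 in a 63-base exon; glycine codons at other positions are in lower case) and in the direction of the gene:
COL1A1: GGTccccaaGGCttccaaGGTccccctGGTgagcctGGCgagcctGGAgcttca
COL1A2: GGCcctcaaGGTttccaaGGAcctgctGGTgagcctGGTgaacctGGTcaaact
COL3A1: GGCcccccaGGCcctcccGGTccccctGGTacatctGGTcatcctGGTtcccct
COL5A1: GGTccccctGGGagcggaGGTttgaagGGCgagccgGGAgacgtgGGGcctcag
COL5A2: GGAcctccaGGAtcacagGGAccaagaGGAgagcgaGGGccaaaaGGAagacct
COL6A1: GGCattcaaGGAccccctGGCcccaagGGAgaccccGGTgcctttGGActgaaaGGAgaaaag
COL6A2: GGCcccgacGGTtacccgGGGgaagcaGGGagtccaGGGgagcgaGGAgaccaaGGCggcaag
COL6A3: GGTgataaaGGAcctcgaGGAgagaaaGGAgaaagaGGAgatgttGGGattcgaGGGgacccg

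These exons are exon 8 of COL1A1 (chr17:50197949-50198002, minus strand), exon 8 of COL1A2 (chr7:94404693-94404746, plus), exon 6 of COL3A1 (chr2:188988081-188988134, plus), exon 15 of COL5A1 (chr9:134753850-134753903, plus), exon 6 of COL5A2 (chr2:189097277-189097330, minus), exon 15 of COL6A1 (chr21:45990979-45991041, plus), exon 12 of COL6A2 (chr21:46117874-46117936, plus) and exon 21 of COL6A3 (chr2:237358521-237358583, minus). The genes lie on 5 chromosomes. COL3A1 (chr2:188974373-189012746) and COL5A2 (chr2:189031898-189225312) face each other with 19151 bases between their ends, and COL6A1 (chr21:45981770-46005050) and COL6A2 (chr21:46098112-46132848) follow each other on the plus strand with 93061 bases between them. COL6A3 lies at chr2:237324003-237414328, COL1A1 at chr17:50184101-50201632, COL1A2 at chr7:94394895-94431227 and COL5A1 at chr9:134641803-134844843. Long noncoding RNAs on the opposite strand overlap parts of COL1A1, COL1A2, COL5A1 and COL5A2, and whether the counting used strand was not given in the sources used here.

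The most abundant member was COL1A1, the main chain of type I collagen. Its level was 1444 CPM (1433 to 1456) in shScr day 3, 1519 CPM (1506 to 1532) in shAPC day 3, 927 CPM (917 to 938) in shScr day 7 and 1485 CPM (1471 to 1499) in shAPC day 7, which ranked it 105th to 135th among the 18810 to 19929 genes with a UMI. By totals, the shScr day 7 library was thus well below the other 3, whose levels lay close together. With TMM or DESeq2 scaling COL1A1 was lower in shAPC than in shScr at day 3 (log2 ratio -0.31 and -0.29). Its partner chain COL1A2 was at 627 CPM in shScr day 3, 802 CPM in shAPC day 3, 492 CPM in shScr day 7 and 1118 CPM in shAPC day 7. For COL1A2 the 4 libraries were spread wide, and by totals shAPC was above shScr at both days. With TMM or DESeq2 scaling its day 3 log2 ratio was -0.024 and -0.0075.

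The other fibril chains were far less abundant. COL3A1 was at 45.3 CPM in shScr day 3, 66.5 CPM in shAPC day 3, 34.9 CPM in shScr day 7 and 87.6 CPM in shAPC day 7. COL5A1, the type V chain, followed nearly the same order with 47.2, 68.0, 39.9 and 81.6 CPM in these libraries. COL5A2, its partner, differed from the rest, with 65.5 CPM (63.0 to 68.0), 70.4 CPM (67.7 to 73.3), 59.8 CPM (57.1 to 62.6) and 62.1 CPM (59.2 to 65.1) in the same order. Put in order from shAPC day 3 down through shScr day 3 and shAPC day 7 to shScr day 7, each COL5A2 interval overlapped the next one. The shAPC day 3 interval, however, lay above those of shAPC day 7 and shScr day 7.

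The type VI chains were intermediate. COL6A1 was at 369 CPM in shScr day 3, 524 CPM in shAPC day 3, 297 CPM in shScr day 7 and 477 CPM in shAPC day 7. COL6A2 was at 215, 345, 153 and 269 CPM, and COL6A3, the longest chain of the trimer, at 342, 367, 188 and 254 CPM in this order of libraries. By totals, all 3 chains were highest in shAPC day 3 and lowest in shScr day 7. The highest library depended on the scaling. With TMM or DESeq2 scaling COL6A3 was lower in shAPC than in shScr at day 3 (log2 ratio -0.28 and -0.26). For COL6A1 the day 7/day 3 log2 ratio of the shAPC libraries was 0.17 with either scaling. Counts of a 3′ assay were not divided by transcript length, so the levels compare molecules captured per gene. In a summed level, fewer cells with a transcript and fewer transcripts per cell cannot be told apart.

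**Figure D1:**
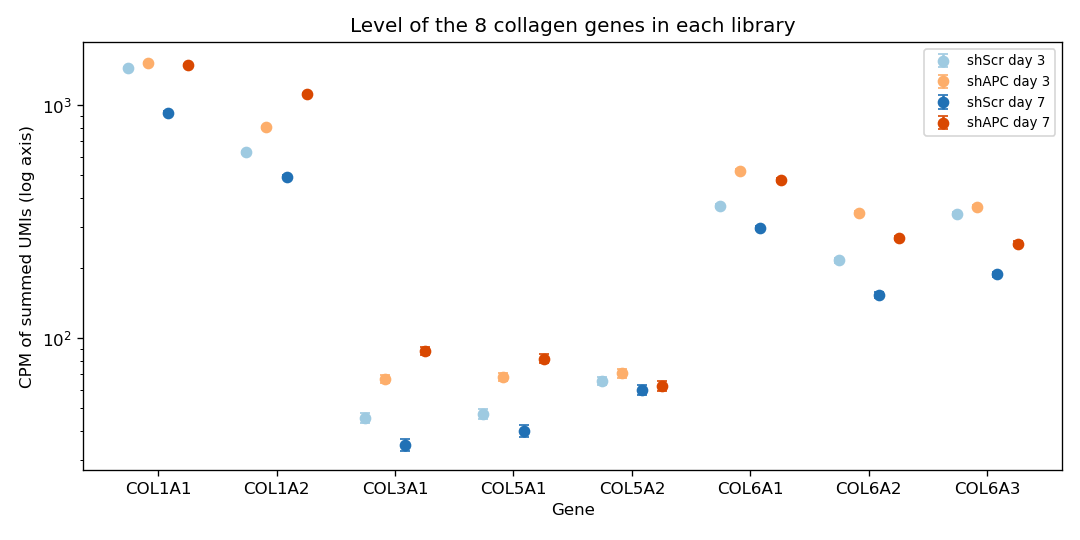
Level of each gene in each library, in CPM of UMIs summed over kept cells on a log axis; points are the 4 libraries and bars the exact Poisson 95% interval, often smaller than the point. The shScr day 7 point is the lowest for all 8 genes, and shAPC day 7 is the highest for COL1A2 (1118 CPM), COL3A1 (87.6 CPM) and COL5A1 (81.6 CPM).

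Together the 8 genes took 0.316% of UMIs in shScr day 3, 0.376% in shAPC day 3, 0.219% in shScr day 7 and 0.383% in shAPC day 7. The fibrillar chains of types I, III and V summed to 2229, 2526, 1554 and 2834 CPM in that order, and the type VI chains to 926, 1235, 638 and 1001 CPM. By totals, shScr day 7 was the lowest of the libraries compared in both groups of chains. The highest library by totals was shAPC day 7 for the fibrillar chains and shAPC day 3 for type VI. For type VI the order of the shAPC libraries depended on the scaling. With TMM the log2 ratio of day 7 to day 3 in shAPC was 0.17 for COL6A1, -0.056 for COL6A2 and -0.22 for COL6A3.

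At day 7, the question was which collagen transcripts were higher or lower with APC knocked down. All 8 genes were above shScr in shAPC, and 6 of 8 were at least 1.5-fold higher, where 2.82% of the 4573 genes with at least 20 CPM in either library were. The median log2 ratio of the 8 was 0.74, beside -0.10 over all genes. COL3A1 (log2 ratio 1.33, interval 1.22 to 1.43), COL1A2 (1.18, 1.16 to 1.21) and COL5A1 (1.03, 0.93 to 1.13) were more than 2-fold higher. COL6A2 (0.81), COL6A1 (0.68) and COL1A1 (0.68) passed 1.5-fold. As a mean over cells of CPM, COL1A1 was at 0.56, below 1.5-fold, which left 5 of 8, and COL5A1 at 1.75. COL6A3 was higher by 0.44 (0.39 to 0.49), below 1.5-fold, and for COL5A2 the difference of 0.05 had an interval of -0.04 to 0.15 that includes 0. None of the 8 was 1.5-fold lower, against 7.65% of all genes. Within deep cells alone, those of at least 2000 UMIs, the summed level was 2131 CPM in shScr and 3791 CPM in shAPC, so the difference was there without the shallow barcodes too. The nuclear RNAs NEAT1 (log2 ratio 0.47) and MALAT1 (0.33) were also higher in shAPC at day 7, and 1557 of 3035 barcodes of that library were at or over the mitochondrial limit against 1052 of 3652 in shScr. Their part in the result was not tested.

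At day 3 the same comparison gave smaller ratios. The log2 ratios were 0.68 (0.64 to 0.72) for COL6A2, 0.55 (0.47 to 0.64) for COL3A1, 0.53 (0.44 to 0.61) for COL5A1, 0.50 (0.47 to 0.54) for COL6A1 and 0.36 (0.33 to 0.38) for COL1A2. They were 0.11 for COL5A2, 0.10 for COL6A3 and 0.07 for COL1A1. Only COL6A2 passed 1.5-fold (1 of 8), where 17.1% of 5175 genes did, and none was 1.5-fold lower, where 1.51% of genes were. All genes together were shifted up in this comparison, with a median log2 ratio of 0.28 against 0.43 for the 8 members, so that 5 of 8 lay above the median of all genes. The direction of the small ratios depended on this shift. With TMM or DESeq2 scaling COL1A1 (-0.31 and -0.29), COL5A2 (-0.27 and -0.26), COL6A3 (-0.28 and -0.26) and COL1A2 (-0.024 and -0.0075) were lower in shAPC, and the median of the 8 was 0.050 and 0.067. COL6A2, COL3A1, COL5A1 and COL6A1 stayed above 0 under every scaling tried.

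By totals, the shAPC/shScr ratio was higher at day 7 than at day 3 for 7 of the 8 genes, and for all 8 once the all-gene median was subtracted. That median was 0.28 at day 3 and -0.10 at day 7. The share of all genes with a higher ratio at day 7 was not computed, so these counts have no background. The day 7 log2 ratio minus the day 3 log2 ratio was 0.83 (0.79 to 0.86) for COL1A2, 0.77 (0.64 to 0.91) for COL3A1, 0.61 (0.58 to 0.63) for COL1A1 and 0.51 (0.37 to 0.64) for COL5A1. It was smaller in type VI, at 0.34 for COL6A3, 0.18 for COL6A1 and 0.13 for COL6A2. For COL5A2 it was -0.05 with an interval of -0.17 to 0.07. After subtraction of the all-gene median, which itself moved between the days, the differences were larger, the highest for COL1A2, with 1.14 for COL3A1, 0.98 for COL1A1, 0.88 for COL5A1, 0.71 for COL6A3, 0.55 for COL6A1, 0.50 for COL6A2 and 0.32 for COL5A2. These differences are between 4 libraries and were not tested against replicates.

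**Figure D2:**
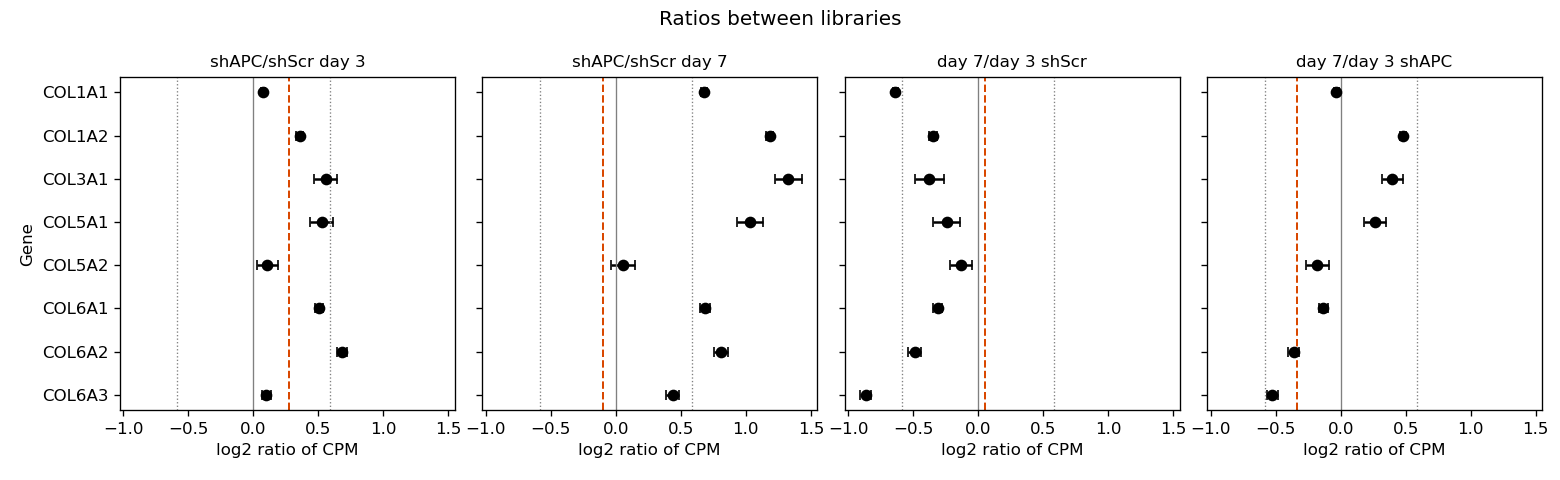
Log2 ratio of CPM for each gene in the 4 comparisons; points are ratios, bars exact conditional binomial 95% intervals, the dashed line the median of all genes with at least 20 CPM, and dotted lines 1.5-fold. At day 7 the 8 shAPC/shScr ratios run from 0.05 (COL5A2) to 1.33 (COL3A1) beside a median of -0.10 over all genes, and in shScr all 8 day 7/day 3 ratios are below 0.

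The comparisons of day 7 with day 3 use the same 4 libraries and are not independent of those above. In shScr all 8 genes were lower at day 7, by -0.13 (COL5A2) to -0.87 (COL6A3, -0.91 to -0.82) on the log2 scale. COL6A3 and COL1A1 (-0.64, -0.66 to -0.62) passed 1.5-fold (2 of 8), where 3.71% of 4556 genes did, and none was 1.5-fold higher, where 3.12% were. The median of the 8 was -0.36 beside 0.05 over all genes. The shallow cells of shScr day 7 differed from the deep ones, with 3949 CPM of the 8 genes (3830 to 4071) in the 1402 cells under 2000 UMIs against 2131 CPM in the 1198 cells above. A mean over cells, which gives each shallow cell the weight of a deep one, brought the median to -0.020 and turned COL1A2 to 0.33, COL6A1 to 0.13 and COL6A2 to 0.33. Among cells of at least 2000 UMIs the summed and the mean levels gave the same direction for all 8 genes.

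In shAPC the genes went in both directions. COL1A2 (0.48, 0.46 to 0.50), COL3A1 (0.40, 0.31 to 0.48) and COL5A1 (0.26, 0.18 to 0.35) were higher at day 7, COL1A1 was near its day 3 level (-0.03), and COL5A2 (-0.18), COL6A1 (-0.13), COL6A2 (-0.36) and COL6A3 (-0.53, -0.57 to -0.49) were lower. The ratios of COL1A1, COL5A2 and COL6A1 were above 0 with TMM, DESeq2 or the median of all genes as the reference. By totals, 0 of 8 passed 1.5-fold in either direction, where 0.966% of 5176 genes were higher and 24.1% lower, and the median of the 8 was -0.08 beside -0.34 over all genes. Under each other scaling the median of the 8 was above 0, so no direction is given for the group. Shallow cells of shAPC day 7, 391 in number, held 7338 CPM of the 8 genes (7056 to 7629) against 3791 CPM in deep cells, while at day 3 shallow cells held less than deep ones, with 2643 against 3158 CPM in shScr and 1939 against 3768 CPM in shAPC.

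Ratios between chains of one collagen do not depend on the scaling of a library. There were 2.30 UMIs of COL1A1 (2.27 to 2.34) for each UMI of COL1A2 in shScr day 3, 1.89 (1.87 to 1.92) in shAPC day 3, 1.88 (1.85 to 1.92) in shScr day 7 and 1.33 (1.31 to 1.35) in shAPC day 7. At each day the ratio was lower in shAPC, and shAPC day 3 and shScr day 7 did not differ beyond their intervals. COL5A1 to COL5A2 moved in the other sense, with 0.72 (0.68 to 0.76), 0.97 (0.91 to 1.02), 0.67 (0.62 to 0.72) and 1.31 (1.23 to 1.40) in the same libraries. COL5A1 was therefore the rarer type V chain in both shScr libraries and the commoner one in shAPC day 7.

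In type VI, COL6A1 to COL6A2 was 1.71 (1.67 to 1.76) in shScr day 3 and 1.52 (1.48 to 1.55) in shAPC day 3. At day 7 it was 1.94 (1.87 to 2.01) in shScr and 1.78 (1.73 to 1.83) in shAPC. This ratio was thus lower in shAPC at each day. COL6A3 to COL6A1 was 0.93 (0.91 to 0.95) in shScr day 3, 0.70 (0.68 to 0.72) in shAPC day 3, 0.63 (0.61 to 0.65) in shScr day 7 and 0.53 (0.52 to 0.55) in shAPC day 7. COL6A3 thus lost ground to its partner both with shAPC and with time. COL3A1 to COL1A1 was 0.031, 0.044, 0.038 and 0.059, above shScr in shAPC at each day.

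**Figure D3:**
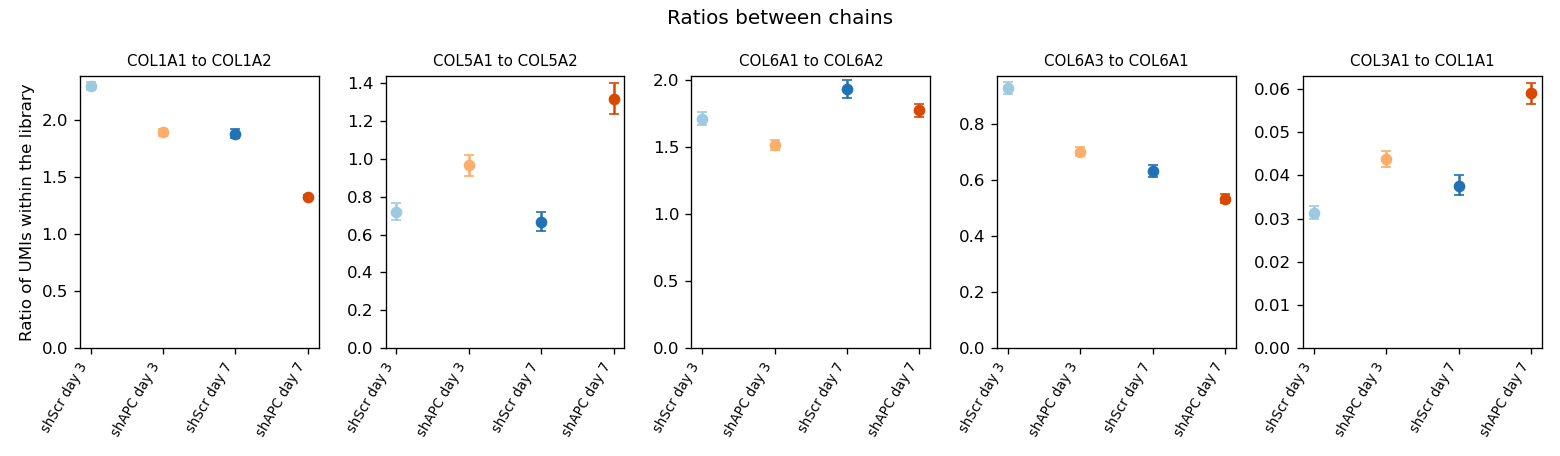
Ratio of UMIs between 2 chains within each library, with exact conditional binomial 95% intervals; each panel has its own axis, starting at 0. COL1A1 to COL1A2 is lowest in shAPC day 7 (1.33) and COL5A1 to COL5A2 highest there (1.31).

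The start region of COL6A2 is shown because this gene had the largest day 3 ratio of the 8. Of the 8 members, COL5A1, COL6A2 and COL6A3 matched the RefSeq promoter table (GRCh38.p14), and COL1A1, COL1A2, COL3A1, COL5A2 and COL6A1 did not. The 250 bases before the start of COL6A2 (chr21:46097862-46098111, plus strand) are printed in the direction of the gene, where capitals mark, read on either strand, GC boxes (GGGCGG), the TATA box TATAAA, the box CCAAT and the letters CAGAC:
COL6A2: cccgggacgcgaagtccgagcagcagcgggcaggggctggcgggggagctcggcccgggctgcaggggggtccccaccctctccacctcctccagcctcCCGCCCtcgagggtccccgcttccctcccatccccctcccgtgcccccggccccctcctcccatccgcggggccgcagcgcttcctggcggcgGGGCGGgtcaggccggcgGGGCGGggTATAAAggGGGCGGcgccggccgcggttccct

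COL6A2 held 3 GC boxes as printed and 1 on the other strand, and 1 TATAAA, in a window of 79.6% G and C. The window of COL6A3 (chr2:237414165-237414414, minus strand) ends before the RefSeq start of the table, and other GENCODE transcripts of the gene start within it. It held none of these and 1 CAGAC on the other strand, at 56% G and C. COL5A1 held 2 GC boxes on the other strand at 74% G and C. Of 35116 promoters of this length, 42.6% held a GC box on either strand, 10.7% TATAAA, 32.0% CCAAT and 38.0% CAGAC, and the median G and C content was 58%. These matches describe the letters of the windows only.

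Over single cells, most cells held collagen transcripts. With each cell thinned to 2000 UMIs, which left out 217, 115, 1402 and 391 shallower cells, 91.7% of 899 cells in shScr day 3 had a UMI of any of the 8 genes (exact binomial 89.7% to 93.4%), as did 92.0% of 673 in shAPC day 3, 87.6% of 1198 in shScr day 7 and 93.0% of 1087 in shAPC day 7. Without thinning the shares were 91.1%, 92.4%, 84.0% and 94.0%. For COL1A1 the thinned shares were 79.0%, 73.3%, 68.7% and 75.9%, and for COL1A2 57.3%, 59.1%, 46.7% and 68.9%. COL1A1 was in fewer shAPC than shScr cells at day 3 although its CPM was higher there, so no order is read from that pair. COL6A1 was found in 45.2%, 54.7%, 34.7% and 52.2% of thinned cells, COL6A2 in 29.5%, 42.8%, 23.5% and 37.3%, and COL6A3 in 43.5%, 48.6%, 26.9% and 36.3%. The sparse chains COL3A1, COL5A1 and COL5A2 reached 6.09% to 15.8%. Free RNA can give UMIs to cells that do not express a gene, and no cell type known to lack these genes was labelled in these cultures, so that background could not be measured.

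The number of collagen UMIs varied more between cells than counting alone gives, for which the ratio of variance to mean would be 1. Per 2000 UMIs the mean sum over the 8 genes was 5.90, 7.10, 4.15 and 7.77 in the libraries in the order used above. Its variance to mean ratio was 4.01, 5.82, 4.01 and 8.32, higher in shAPC at each day. The 10% of cells with the most collagen held 28.9%, 30.9%, 32.5% and 35.1% of the collagen UMIs, and the highest single cell had 32, 51, 32 and 60. This ratio rises with the mean, and it was highest for the abundant type I chains, with 2.95, 4.11, 2.72 and 4.82 for COL1A1 and 2.00, 2.75, 2.37 and 4.29 for COL1A2. COL3A1, at means of only 0.066 to 0.19 UMIs, had 1.11 to 1.47, COL6A3 1.11 to 1.26 and COL5A2 0.99 to 1.08.

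**Figure D4:**
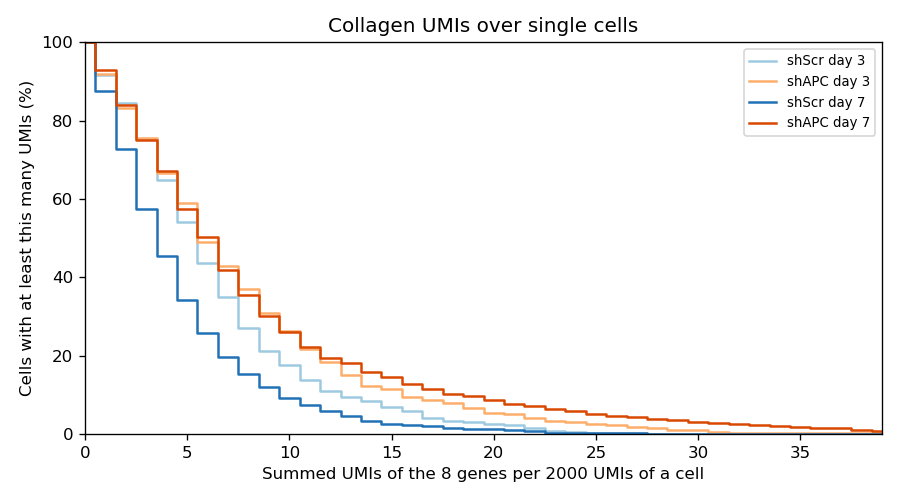
Share of thinned cells (vertical axis, percent) with at least a given number of UMIs of the 8 genes per 2000 UMIs (horizontal axis), 1 line per library. The shAPC day 7 line reaches farthest to the right (90th percentile 18 UMIs) and the shScr day 7 line is the lowest (90th percentile 9 UMIs).

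The chains of type I went together from cell to cell. The Spearman correlation of COL1A1 with COL1A2 over thinned cells was 0.41, 0.56, 0.40 and 0.62 in the 4 libraries, the highest of the 28 pairs of members in each. COL6A1 with COL6A2 gave 0.23, 0.32, 0.17 and 0.25, and COL1A1 with COL6A1 gave 0.24, 0.30, 0.26 and 0.32. The median over pairs was 0.12, 0.13, 0.10 and 0.16, and for sparse genes such low values are no finding. Cells of a library share that library and here the same depth. Outside the members, the genes whose UMIs went most closely with the sum of the 8 genes over cells, ranked by the lowest of the 4 values among 3822 genes, included FN1 (fibronectin, 0.45 to 0.51), NEAT1 (0.34 to 0.53), MEG3 (0.26 to 0.31), MT-CO2 (0.26 to 0.45), SPARC (a collagen-binding matrix protein, 0.25 to 0.42), MALAT1 (0.24 to 0.40), ITGB1 (0.24 to 0.32), LOX (a collagen crosslinking enzyme, 0.24 to 0.34) and GREM1 (0.22 to 0.43). NEAT1, MEG3 and MALAT1 are nuclear long noncoding RNAs and MT-CO2 is a mitochondrial transcript. The median correlation over all these genes was 0.013 in shScr day 3 and between -0.00052 and 0.0027 in the other libraries.

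Cells with mitosis transcripts had a lower share of collagen UMIs. In thinned cells with at least 2 UMIs of 10 mitosis genes (TOP2A, MKI67, CDK1 and others), the 8 genes summed to 2476 CPM against 3041 CPM in the other cells of shScr day 3, 2625 against 3734 in shAPC day 3, 1599 against 2187 in shScr day 7 and 2695 against 4047 in shAPC day 7. The log2 ratio was -0.30 (-0.41 to -0.18), -0.51 (-0.64 to -0.38), -0.45 (-0.57 to -0.34) and -0.59 (-0.70 to -0.48). COL1A1 and COL1A2 were lower in cycling cells with intervals below 0 in all 4 libraries, by -0.30 to -0.53 and by -0.42 to -0.83. With at least 4 mitosis UMIs as the limit, COL1A1 kept this, while COL1A2 was at -0.31 in shScr day 3 and -0.30 in shAPC day 3 with intervals that include 0. These intervals cover counting error only and not the spread between cells, which was larger for COL1A1 (variance to mean ratio 2.72 to 4.82). COL6A3 was between -0.21 and 0.12 with intervals that include 0 in all 4. The share of UMIs that the mitosis genes themselves take was not removed.

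Barcodes at or over 5% mitochondrial UMIs, which had been left out, had a higher share of collagen UMIs than kept cells. The 8 genes summed to 4594 CPM in 355 such barcodes of shScr day 3, 5103 in 259 of shAPC day 3, 3191 in 1052 of shScr day 7 and 5118 in 1557 of shAPC day 7. Against the kept cells of the same library the log2 ratio was 0.54, 0.44, 0.54 and 0.42, and each of the 8 genes was higher in each library. The same ratio over all genes was not computed, so whether this is particular to the collagen genes was not tested. COL3A1 had the largest ratio in 3 of the libraries (0.61 to 1.01 over the 4), and COL6A3 gave 0.24 to 0.47.

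**Figure D5:**
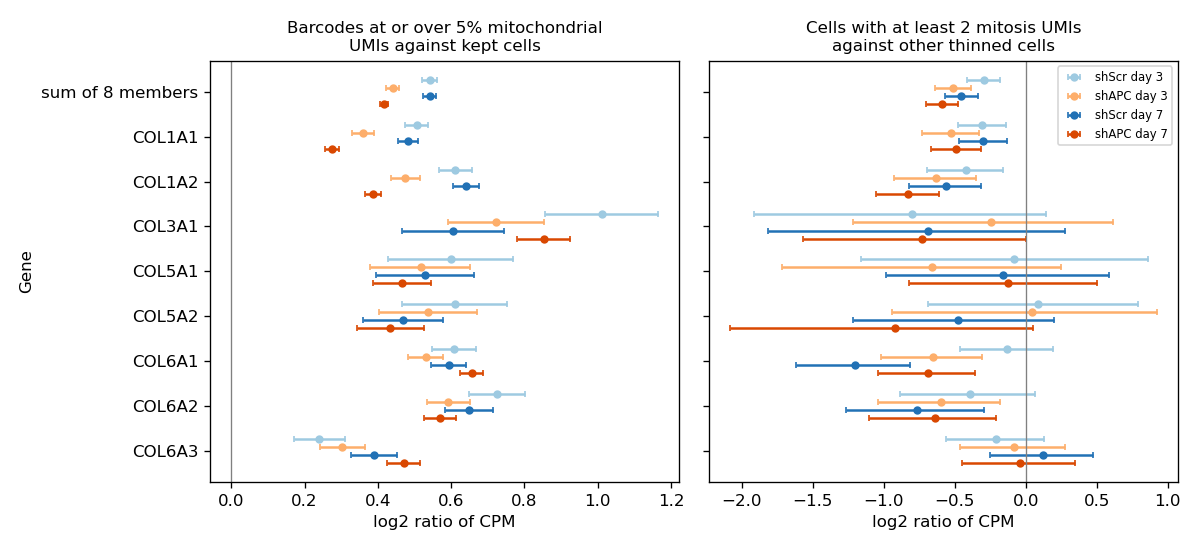
Log2 ratio of CPM within each library, left for barcodes at or over 5% mitochondrial UMIs against kept cells, right for thinned cells with at least 2 mitosis UMIs against the others; points are libraries and bars exact conditional binomial 95% intervals. On the left all points lie above 0 (sum of the 8 genes 0.42 to 0.54), and on the right the 4 sums lie at -0.30 to -0.59.

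The other genes of the collagen pathway were described as lists. Beside their counts, 17.1% of all genes were 1.5-fold higher and 1.51% lower in shAPC than in shScr at day 3. At day 7 these shares were 2.82% and 7.65%. From day 3 to day 7, 3.12% were higher and 3.71% lower in shScr, and 0.966% and 24.1% in shAPC. None of the other 8 fibrillar and beaded chains listed, such as COL2A1 and COL11A1, reached 20 CPM, and the most abundant, COL27A1, was at 8.37 CPM in shScr day 3, 11.0 in shAPC day 3, 8.36 in shScr day 7 and 9.98 in shAPC day 7. Of 16 network, transmembrane and fibril-associated chains, 6 were measured at 20 CPM in the shAPC/shScr comparisons. COL7A1, the anchoring fibril chain of the epidermal junction, was 1.5-fold higher in shAPC at both days, at 13.6 and 25.5 CPM on day 3 and 14.5 and 31.4 CPM on day 7. COL8A1, a short-chain network collagen, was 1.5-fold lower at both days, at 200 and 127 CPM on day 3 and 247 and 122 CPM on day 7, and COL12A1 was 1.5-fold lower at day 7 (21.4 CPM in shScr, log2 ratio of CPM + 1 of -0.78). COL18A1, a basement membrane chain, was lower at day 7 than at day 3 in shScr (14.6 and 22.9 CPM). Collagen genes outside the 8 thus went in both directions.

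Of the enzymes and chaperones that modify the chains in the endoplasmic reticulum, 14 were measured at day 7 and 15 at day 3. At day 7, 1 was 1.5-fold higher in shAPC, where 2.82% of all genes were, and none was lower, where 7.65% were. The median log2 ratio was 0.0053 beside -0.10 over all genes. At day 3, 1 was higher and 1 lower, where 17.1% and 1.51% of all genes were. The median was -0.0030 beside 0.28 over all genes. The higher gene was PLOD1, a lysyl hydroxylase, with 49.6 CPM in shScr day 3, 75.5 in shAPC day 3, 38.2 in shScr day 7 and 71.9 in shAPC day 7. SPARC was the lower one at day 3 (690 and 445 CPM). P3H1, a prolyl 3-hydroxylase, was lower at day 7 in shScr (15.8 against 28.3 CPM), and PLOD3 (30.5 against 52.7 CPM) and PPIB, a prolyl isomerase (166 against 255 CPM), in shAPC. Among 6 measured genes of secretion and propeptide removal, PCOLCE, an enhancer of propeptide cleavage, was 1.5-fold higher in shAPC at day 3 (50.5 against 28.3 CPM) and none at day 7. The most abundant of them, SEC23A, a coat protein of secretory vesicles, was at 72.8 to 96.2 CPM. Only 3 crosslinking enzymes were measured at day 3 and 2 at day 7, and none differed by 1.5-fold between shAPC and shScr. LOX was at 533 and 384 CPM on day 3 and 522 and 375 CPM on day 7. LOXL2 was lower at day 7 than at day 3 with either shRNA, at 58.5 against 103 CPM in shScr and 72.1 against 113 CPM in shAPC.

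Of 3 measured fibril-binding genes, DCN, a small proteoglycan of collagen fibrils, was 1.5-fold higher in shAPC at day 3 (363 against 216 CPM), with 299 against 223 CPM at day 7, and FN1 was at 3268 against 3676 and 2758 against 3077 CPM. None of the 6 measured collagen receptors passed 1.5-fold between shAPC and shScr. The most abundant of them, ITGB1, was at 543 to 766 CPM, and ITGA2, a collagen-binding integrin chain, was lower at day 7 in shAPC (19.5 against 32.0 CPM). In the TGF-beta list, which holds inducers and targets of collagen synthesis, TGFBI was 1.5-fold higher in shAPC at day 7 (423 against 216 CPM) and TGFBR2, a TGF-beta receptor, lower (53.1 against 86.9 CPM) among 10 measured genes, and LTBP2 was lower at day 3 (13.1 against 20.4 CPM) among 11. The median of the list was -0.24 at day 7 beside -0.10 over all genes. CTGF, a matricellular target, was higher at day 7 with either shRNA (257 against 149 CPM in shScr and 195 against 123 CPM in shAPC). LTBP1, which binds latent TGF-beta, was lower at day 7 in shAPC (62.8 against 103 CPM). These lists are described by counts and medians only.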

How the data were processed

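The members, gene lists and rules were chosen with earlier results of these data known. The authors aligned reads to GRCh38 (hg38) with Cell Ranger, which uses STAR, and deposited raw UMI counts per gene and cell barcode. Per the file headers Cell Ranger 3.0.2 wrote the shScr matrices and 3.0.0 the shAPC ones, so version and shRNA cannot be told apart. The virus is retroviral in the labels and lentiviral in the methods, and the kit v2 or V3. The annotation release was not given in the sources used here.

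A barcode was kept if it had 200 or more genes, 500 or more UMIs and a share below 5% for the 13 mitochondrial genes, which kept 1116 of 1471 barcodes (shScr day 3), 788 of 1047 (shAPC day 3), 2600 of 3652 (shScr day 7) and 1478 of 3035 (shAPC day 7). The study's ComBat correction and imputation were not applied. No doublet caller was run, and leaving out the 5% of cells with the most UMIs served as an alternative. UMIs were summed per library and scaled to CPM by total. With 1 library per group no test between groups was run (an additive fit of shRNA and day, with 1 residual degree of freedom, was left out), and a call is a difference of at least 1.5-fold on log2(CPM + 1) among genes with at least 20 CPM in either library. Printed ratios of members have no pseudocount, and those of lists have 1 CPM. Intervals are exact Poisson for levels, exact conditional binomial (Clopper-Pearson) for ratios and exact binomial for shares, all at 95%; the interval of a difference of ratios uses a normal approximation on log counts. PCR duplicates were collapsed by UMI, and intervals cover counting error only. The code for ratios and thinning was run on simulated counts with known folds. These were drawn with counting error only, so the run does not cover the spread between cells or libraries.

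Named genes were all members, APC, up to 4 genes per list past 1.5-fold in any comparison and the most abundant gene of each list, and the 10 genes most correlated with the members over cells. An item that the rule names is not reported here. PPIB, TGFBR2 and LTBP2 were named outside this rule, after their values were seen, to complete counts. Alternatives were TMM (edgeR 4.0.16), DESeq2 1.42.0 size factors, other totals, cell filters, folds, minimums, pseudocounts and thinning to 5000 UMIs. Exons are of GENCODE 44 and promoters of RefSeq. Python 3.11.15, numpy 2.4.6, scipy 1.17.1 and R 4.3.3 were used.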

Additional observations from a re-analysis of the deposited data

Results flagged for a closer look

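COL1A2, COL3A1 and COL5A1 were lower at day 7 than at day 3 in shScr and higher at day 7 in shAPC, with counting intervals on opposite sides of 0. The log2 ratio of day 7 to day 3 was -0.35 in shScr and 0.48 in shAPC for COL1A2, -0.38 and 0.40 for COL3A1, and -0.24 and 0.26 for COL5A1. The difference between the shRNAs was not tested, since each ratio rests on 2 libraries, and shScr day 7 is the shallowest library. With a mean over cells of CPM, COL1A2 was above 0 in shScr as well (0.33).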

How the results depend on the processing

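No paired analysis was possible because the groups compared shared fewer than 2 replicate numbers and the results come from no test, and leaving out a replicate could not be run. Of 320 values of single-gene ratios under alternatives, 138 stayed within the counting interval, 145 moved outside it with the same direction or without a call, and 37 changed direction; the cause was not tested. The mean over cells of at least 2000 UMIs was chosen after seeing the data. Leaving out shallow cells, or the 5% of cells with the most UMIs, moved no median beyond the counting error and no count of members by over 1.5 times.

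For shAPC/shScr at day 3 the median (0.43) was 0.050 with TMM, 0.067 with DESeq2, 0.32 by totals without mitochondrial and ribosomal protein genes, 0.29 as a mean over cells and 0.15 relative to all genes, and the count at least 1.5-fold higher (1) became 0 under each of these and at 2-fold. COL1A1 changed to -0.31 with TMM, -0.29 with DESeq2, -0.040 by those totals, -0.011 as a mean over cells and -0.20 relative to all genes, COL5A2 to -0.27, -0.26, -0.0085 (totals) and -0.17 (relative), COL6A3 to -0.28, -0.26, -0.014 and -0.18, and COL1A2 to -0.024 with TMM and -0.0075 with DESeq2.

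At day 7 the median (0.74) was 0.81 by totals without those genes, 0.86 with all barcodes, 0.88 with a mitochondrial limit of 10%, 0.84 relative to all genes and 0.84 as a mean over deep cells, and at 2-fold the count (6) was 3. As a mean over cells it was 5, without COL1A1 (0.56), and COL5A1 was 1.75.

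For day 7/day 3 in shScr the median (-0.36) was -0.42 with TMM, -0.020 as a mean over cells, -0.26 with all barcodes and -0.41 relative to all genes. The count lower (2) was 0 as a mean over cells and at 2-fold and 1 with all barcodes. As a mean over cells COL1A2 changed to 0.33, COL6A1 to 0.13 and COL6A2 to 0.33.

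For day 7/day 3 in shAPC the median (-0.08) changed direction to 0.22 with TMM and with DESeq2, 0.095 by totals without those genes, 0.55 as a mean over cells, 0.049 as a mean over deep cells, 0.089 with all barcodes, 0.081 at a limit of 10% and 0.25 relative to all genes, and the count higher (0) became 2, 2, 1, 3, 1, 2, 2 and 3. COL1A1 changed to 0.27, 0.27, 0.14, 0.57, 0.11, 0.049, 0.041 and 0.30 in this order. COL6A1 changed to 0.17 with TMM and DESeq2, 0.045 by totals, 0.41 as a mean over cells, 0.13 with all barcodes, 0.12 at 10% and 0.20 relative to all genes, COL5A2 to 0.12 with TMM and DESeq2 and 0.15 relative to all genes, and COL6A2 to 0.53 as a mean over cells.

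With at least 4 mitosis UMIs the ratio of cycling to other cells was -0.33 in shAPC day 3 and -0.30 in shScr day 7. Thinning to 5000 UMIs gave median pair correlations of 0.22 in shAPC day 3, 0.17 in shScr day 7 and 0.25 in shAPC day 7, and shares of cells with any member of 97.5%, 97.4%, 97.7% and 98.3% (shScr day 3, shAPC day 3, shScr day 7, shAPC day 7). Unthinned, the share in shScr day 7 was 84.0%.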
